A study of Mus musculus with 6 samples.

Results

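The 10 genes described here encode inhibitory receptors of T cells and the Tox factors that accompany them: *Pdcd1*, *Ctla4*, *Lag3*, *Havcr2*, *Tigit*, *Btla*, *Cd160*, *Entpd1*, *Tox* and *Tox2*. They were taken by symbol from the 35602 genes of the count table, which lists all 10, and all 10 passed the filter on low counts. The study examined what a kinase inhibitor does to the transcriptome of activated CD4+ T cells from mouse spleen. MAPK13-IN-1 blocks the p38-delta kinase encoded by *Mapk13*, and DMSO, its solvent, served as the control. In both groups splenic CD4+ T cells were stimulated with antibodies to CD3 and CD28 and collected for RNA-seq at 72 h, and the study's title places the work in chronic graft rejection.

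The study sequenced 6 libraries, 3 for each treatment, in 2 library preparations. For replicates 2 and 3 of each group the labels give wild-type cells, a dose of 17.1 µM MAPK13-IN-1 or 0.1 µl of DMSO, and mRNA was captured on poly-T beads. Their labels put the addition after day 1 of culture, whereas the design text has the inhibitor present for the 72 h. Total counts were 26874805 and 28487403 in the DMSO libraries and 33854760 and 32617702 in the MAPK13-IN-1 libraries. Replicate 1 is the name used here for the pair whose titles carry no number. For the replicate 1 pair, made with a stranded mRNA kit, the labels give neither genotype nor dose. Its values are read as FPKM (fragments scaled to transcript length and library size), going by the values themselves since no unit is named, and its depth is unknown. Since the replicate 1 pair comes from another preparation and is not in counts, it entered no test, and its values are given separately. For several members they had the opposite direction, so the p-values describe only the 4 count libraries. Nothing in the labels says that replicates came from separate animals or cultures, so p-values measure only the spread between these libraries.

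The receptors in this group restrain T cell activation. *Pdcd1* encodes PD-1, which recruits phosphatases to the activated antigen receptor complex, and *Ctla4* encodes a receptor that competes with CD28 for the ligands CD80 and CD86. Their expression follows activation itself, and it stays high on T cells exposed to antigen for a long time, the state called exhaustion, in which Tox is a driving transcription factor.

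*Pdcd1*, *Ctla4* and *Lag3* fell with the inhibitor in the count libraries. *Pdcd1* was at 45.6 and 45.9 CPM (TMM-scaled counts divided by library size) in the DMSO libraries and at 9.13 and 11.7 CPM in the MAPK13-IN-1 libraries. The lower of its DMSO values was well above the higher of its inhibitor values. On the log2 scale the change was −2.14 (95% interval −2.40 to −1.88, standard error 0.12), or 4.40-fold lower, and the adjusted p was 2.06e-07 (edgeR quasi-likelihood test, Benjamini-Hochberg over 16269 genes). Of the genes tested, 330 had a lower log2 fold change. *Ctla4* was at 256 and 245 CPM with DMSO and at 72.8 and 89.8 CPM with the inhibitor. The groups did not overlap, and *Ctla4* changed by −1.62 in log2 (95% interval −1.82 to −1.43, standard error 0.088), or 3.08-fold lower, with an adjusted p of 2.07e-07 (edgeR quasi-likelihood, Benjamini-Hochberg). *Lag3*, whose product binds MHC class II and so sees the same ligand as CD4, was at 140 and 146 CPM with DMSO and at 53.5 and 61.0 CPM with the inhibitor. Its groups did not overlap either, and *Lag3* changed by −1.32 in log2 (95% interval −1.49 to −1.15, standard error 0.075), or 2.50-fold lower, with an adjusted p of 2.65e-07 (edgeR quasi-likelihood, Benjamini-Hochberg). Over the 11 other fits planned, the log2 fold change stayed between −2.33 and −1.97 for *Pdcd1*, between −1.79 and −1.48 for *Ctla4* and between −1.42 and −1.20 for *Lag3*. In bulk RNA, fewer cells that express a gene and less RNA per cell cannot be told apart.

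These 3 made up the members called lower, 30.0% of the 10, and *Entpd1* was the 1 called higher, 10.0%. Among all 16269 genes tested, 32.3% were called lower, 31.5% higher and 63.8% in either direction, so the share of members called lower was close to that of all genes and the share called higher was below it. With a log2 fold change under −1 also required, the same 3 members passed, against 10.4% of all genes. The median log2 fold change was −0.20 over the members and 0.01 over all genes.

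The other receptors of the group did not pass the test. *Btla*, a receptor for the TNF receptor family member HVEM that B cells also express, was at 132 and 134 CPM with DMSO and at 121 and 134 CPM with the inhibitor. These groups overlapped, and the log2 fold change was −0.06 with a 95% interval of −0.20 to 0.089 (adjusted p 0.476, edgeR quasi-likelihood, Benjamini-Hochberg). It changed sign under other scalings, at 0.02 with upper-quartile factors and 0.07 with library totals alone. *Tigit*, which competes with CD226 for the ligand PVR, was at 46.5 and 55.2 CPM with DMSO and at 44.9 and 47.1 CPM with the inhibitor, also overlapping (log2 fold change −0.15, 95% interval −0.35 to 0.054, adjusted p 0.179, edgeR quasi-likelihood, Benjamini-Hochberg). *Btla* and *Tigit* were both called lower without MAPK13-IN-1 replicate 3, with log2 fold changes of −0.14 and −0.19. That fit assumes that the lone inhibitor library varies like the DMSO libraries. Replicates with the inhibitor differed more, with a mean chi-square per gene of 9.70 against 3.00 with DMSO. *Tigit* ran from −0.28 without DMSO replicate 2 to −0.026 without DMSO replicate 3. *Havcr2*, which encodes TIM-3, and *Cd160*, an HVEM receptor better known from cytotoxic lymphocytes, were scarce. *Havcr2* had 96 to 120 counts in each library, at 3.88 and 3.53 CPM with DMSO and 3.38 and 2.83 CPM with the inhibitor. The log2 interval of *Havcr2*, −0.69 to 0.19, holds both a fall and a rise. *Cd160* had 30 to 34 counts in each library, between 0.93 and 1.32 CPM, and a log2 interval of −1.04 to 0.35.

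*Entpd1* encodes CD39, an ectoenzyme that degrades extracellular ATP toward AMP and is often counted with the inhibitory receptors. It was at 11.7 and 13.3 CPM with DMSO and at 17.4 and 14.4 CPM with the inhibitor, groups that stood close together without overlapping. *Entpd1* changed by 0.35 in log2 (95% interval 0.062 to 0.64, standard error 0.13), with an adjusted p of 0.0357 (edgeR quasi-likelihood, Benjamini-Hochberg). This call was lost with DESeq2 at a log2 fold change of 0.36, about as large (adjusted p 0.0716, Wald test, Benjamini-Hochberg). It was also lost without DMSO replicate 2 and without MAPK13-IN-1 replicate 2, at 0.25 and 0.21 in log2 (adjusted p 0.242 and 0.148, edgeR quasi-likelihood, Benjamini-Hochberg). Of 13 purinergic enzymes and receptors, all tested, 6 were higher, *Entpd1* among them, and 6 were lower, with a median log2 fold change of 0.07 that became −0.15 over the 12 without *Entpd1*. *Nt5e*, whose product CD73 turns AMP into adenosine, fell from 25.1 and 24.5 CPM to 16.1 and 14.7 CPM (log2 fold change −0.69). *Adora2a*, which encodes an adenosine receptor, rose from 43.0 and 42.4 CPM to 60.1 and 64.3 CPM (0.54). The nucleoside transporter *Slc29a1* fell (log2 fold change −1.43), and *Dpp4*, which anchors adenosine deaminase in human T cells, rose (0.61).

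The Tox factors bind DNA through an HMG box. *Tox* was at 6.83 and 7.83 CPM with DMSO and at 7.92 and 8.74 CPM with the inhibitor, and *Tox2* was at 3.68 and 3.31 CPM with DMSO and at 4.45 and 4.63 CPM with the inhibitor. Neither pair of groups overlapped, yet neither gene passed the test. *Tox* changed by 0.18 in log2 (95% interval −0.14 to 0.50) with an adjusted p of 0.291, and *Tox2* by 0.38 (−0.023 to 0.78) with 0.0899 (edgeR quasi-likelihood, Benjamini-Hochberg). With a library left out, *Tox* ran from 0.075 without DMSO replicate 2 to 0.28 without DMSO replicate 3. *Tox2* was called higher with upper-quartile factors and with library totals alone, with adjusted p of 0.0450 and 0.0304 (edgeR quasi-likelihood, Benjamini-Hochberg). The last exon of *Tox* overlaps the antisense gene *Gm11802*, which had at most 0.338 CPM in any library, and without strand the reads of the 2 cannot be told apart. The related *Tox4* was at 116 to 130 CPM and changed by −0.08, a sign that turned with upper-quartile factors and library totals, and *Tox3* was under the filter with at most 0.349 CPM. Of the 13 HMG-box genes tested, *Tox* and *Tox2* included, 3 were higher and 6 lower, with a median of −0.09. Without these 2 members the median over the other 11 was −0.70. The falls included *Lef1*, a partner of Tcf1 (log2 fold change −0.91), and the chromatin proteins *Hmgb1* and *Hmgb2* (−0.70 and −1.02).

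**Figure D1:**
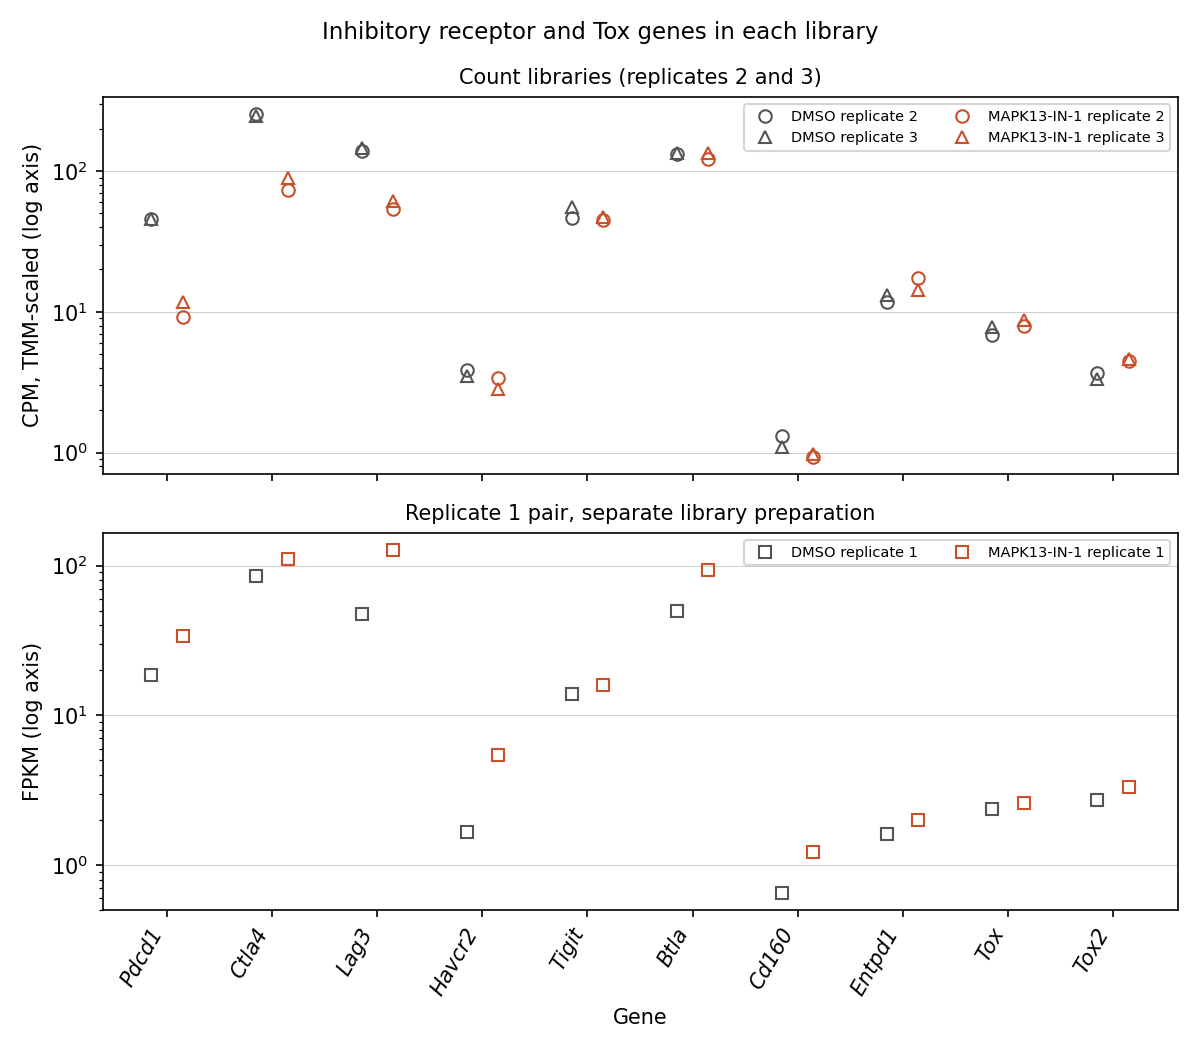
Level of each of the 10 genes in every library on log axes, as TMM-scaled CPM in the 4 count libraries (upper panel) and as FPKM in the replicate 1 pair (lower panel), with 1 symbol for each library. *Pdcd1*, *Ctla4* and *Lag3* are lower with MAPK13-IN-1 in the upper panel, and all 10 genes are higher with MAPK13-IN-1 in the lower panel.

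In the replicate 1 pair all 10 members were higher with MAPK13-IN-1, the 3 that fell in the count libraries included. Of the genes tested in the count libraries that have a value in this pair, 60.2% were higher there. *Lag3* reached 128 FPKM with the inhibitor against 47.7 with DMSO, a log2 ratio of 1.40 on the log2(FPKM + 1) scale, which understates the change of genes with low values. *Pdcd1* was at 18.6 and 34.1 FPKM (0.84) and *Ctla4* at 84.9 and 112 FPKM (0.39). These values have no replicate check. *Havcr2*, at 1.65 and 5.42 FPKM (log2 ratio 1.28), and *Btla*, at 49.7 and 92.8 FPKM (0.89), were also at least 1.5-fold higher on this scale, which makes 4 members past that size against 12.9% of all genes. The other 5 members had log2 ratios between 0.10 for *Tox* and 0.42 for *Cd160*. The median log2 ratio was 0.41 over the members and 0.07 over all genes. Among the 5183 genes called lower in the count libraries that have a value in this pair, 2236 (43.1%) were higher there, and 470 (9.07%) were at least 1.5-fold higher, as *Pdcd1* and *Lag3* were. The difference between the preparations was not tested, and the part of kit and that of culture cannot be told apart. The study describes its RNA-seq with a single inhibitor dose and does not name replicates there.

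**Figure D2:**
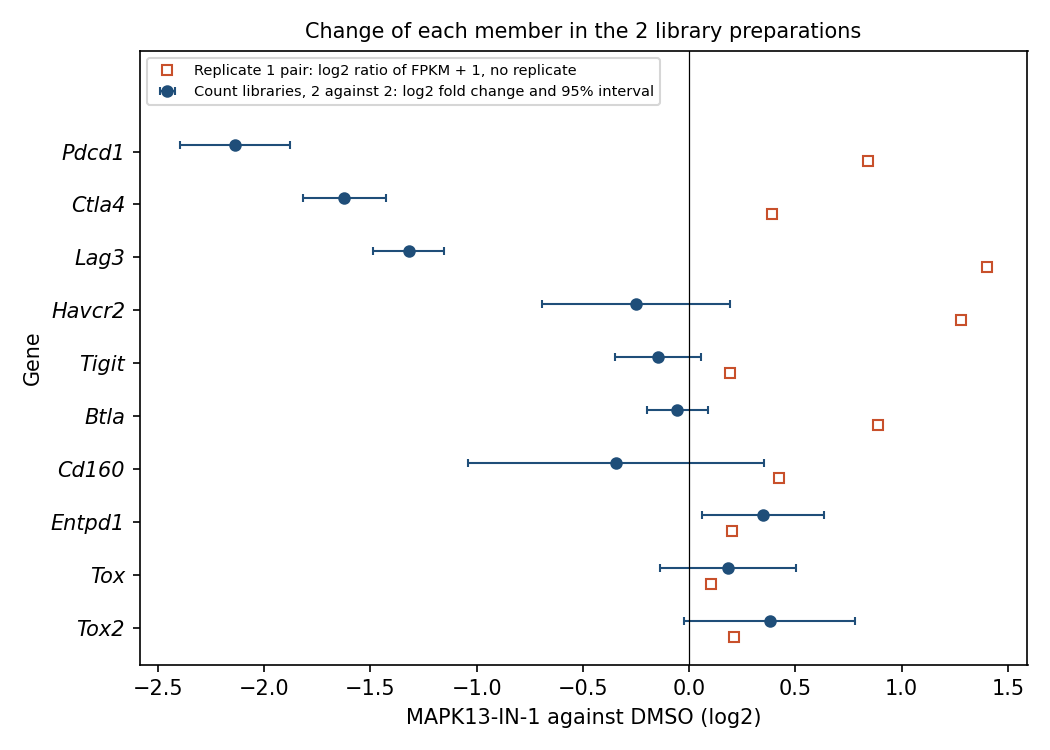
Change of each gene with MAPK13-IN-1 against DMSO. Filled circles are log2 fold changes from the 4 count libraries with 95% intervals, and open squares are log2 ratios of FPKM + 1 from the replicate 1 pair, which has no replicate. For *Pdcd1*, *Ctla4* and *Lag3* the circles lie at −2.14, −1.62 and −1.32 and the squares at 0.84, 0.39 and 1.40.

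Levels of different members can be compared only per length. In FPKM the order with DMSO in replicate 1 was *Ctla4* (84.9), *Btla* (49.7), *Lag3* (47.7), *Pdcd1* (18.6) and *Tigit* (13.8), with the other 5 at or under 2.72. With the inhibitor *Lag3* (128) stood above *Ctla4* (112). In the count libraries the mean CPM per kilobase of annotated exon with DMSO ran from *Ctla4* (129) through *Lag3* (71.4), *Tigit* (55.4) and *Btla* (40.8) to *Pdcd1* (23.7). With the inhibitor it ran from *Tigit* (50.0), *Ctla4* (42.1) and *Btla* (39.2), whose libraries lay close together, to *Lag3* (28.6) and *Pdcd1* (5.39). The place of *Tigit* depends on its short annotated exon length of 919 bases. *Entpd1*, *Tox*, *Havcr2*, *Tox2* and *Cd160* were all at or under 3.66 CPM per kilobase in both groups.

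The study isolated its cells with a kit for CD4+ T cells, yet the count libraries held transcripts used as markers of other cells, and the levels of marker lists differed between groups. Other cell shares and regulation within T cells cannot be told apart by these values. Of the 12 T cell markers listed, 9 are in the count table, and 7 fell and 0 rose, with a median log2 fold change of −1.26. Their summed level was 1752 and 1788 CPM with DMSO and 921 and 1035 CPM with the inhibitor. *Cd5*, with the highest CPM, was at 426 and 439 CPM with DMSO and at 154 and 200 CPM with the inhibitor (log2 fold change −1.29). *Lck*, *Cd2* and *Cd3g* fell by 1.20, 1.26 and 1.56 on the log2 scale. *Cd4* itself was at 275, 276, 267 and 283 CPM, a log2 fold change of −0.00064 with a 95% interval of −0.12 to 0.12. Of 12 B cell markers, 8 rose and 2 fell, with a median of 0.39 and a summed level of 1016 and 1002 CPM with DMSO and 1235 and 1248 CPM with the inhibitor. *Pax5*, with the highest CPM of them, was at 178 and 168 CPM with DMSO and at 263 and 271 CPM with the inhibitor. Summed per kilobase, the B cell list was at 0.574 and 0.563 times the T cell list with DMSO and at 1.36 and 1.20 times with the inhibitor. The same ratio in the replicate 1 pair was 0.0397 and 0.0276, and *Pax5* was at 2.59 and 1.27 FPKM. The part of these differences in the fall of *Pdcd1*, *Ctla4* and *Lag3* was not tested.

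Scaling the count libraries to the 9 T cell markers in place of TMM, a setting chosen after seeing the data, raised the median log2 fold change of all genes by 0.99. The fold changes were then −1.16 for *Pdcd1*, −0.64 for *Ctla4* and −0.33 for *Lag3* (adjusted p 1.05e-08, 2.47e-05 and 0.0153, edgeR quasi-likelihood, Benjamini-Hochberg), still lower but by less. *Btla*, *Tigit*, *Havcr2*, *Entpd1*, *Tox* and *Tox2* were called higher on that scale, at 0.93, 0.84, 0.74, 1.35, 1.17 and 1.37. The split of all calls was 12456 higher and 783 lower, against 5122 and 5252 with TMM.

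Regulatory T cells carry *Ctla4* at high levels. Of 10 genes listed for them, 1 rose and 6 fell, with a median of −0.79. Their sum was 1726 and 1726 CPM with DMSO and 774 and 883 CPM with the inhibitor. Much of the DMSO sum came from *Il2ra*, at 963 CPM in each library, and *Tnfrsf18*, at 305 and 306 CPM. Both are also on the list of genes induced through the T cell receptor, so the sum is not particular to regulatory T cells. Its part in the fall of *Ctla4* was not tested. *Il2ra*, with the highest CPM, had a log2 fold change of −1.27, *Foxp3*, which defines these cells, went from 58.4 and 60.6 CPM to 20.3 and 23.8 CPM (−1.44), and *Gpr83* had −2.68. *Foxp3* in the replicate 1 pair was at 13.6 and 14.6 FPKM. Of the CD8 T cell list, 6 of 7 genes were tested, 1 rose and 3 fell, and the sum was 45.1 and 45.3 CPM with DMSO and 41.7 and 52.2 CPM with the inhibitor. *Cd8a* was low, at 2.99 CPM or less in every count library, and fell (log2 fold change −1.41). *Nkg7* fell there too (−2.64), whereas *Ccl5* rose (1.89). In the replicate 1 pair the cytotoxic gene *Nkg7* reached 111 FPKM with the inhibitor against 13.0 with DMSO, and the chemokine *Ccl5*, highest of the list in CPM in the inhibitor count libraries but below *Nkg7* in the DMSO ones, was at 13.3 and 246 FPKM, whereas *Cd8a* was at 0.131 and 0.553 FPKM. The sum of that list was 30.9 and 380 FPKM, and its part in the higher members of that pair was not tested.

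Lists for other cell types were summed in the same way, and the gene with the highest CPM is named for each, which is no ranking per length. The 9 NK cell genes summed to 8.59 to 10.3 CPM, with *Prf1* highest in the DMSO libraries, *Klrk1* highest in the inhibitor libraries and *Klra8* at 0 (1 higher and 1 lower of 5 tested). The 6 plasma cell genes summed to 248 to 261 CPM, led by *Mzb1* (3 higher and 2 lower of 5 tested). The 12 macrophage and monocyte genes went from 13.7 and 12.6 CPM to 41.6 and 34.1 CPM, led by *Cd68* (5 higher and 1 lower of 8 tested). The 10 dendritic cell genes summed to 113 to 131 CPM, led by *Bst2* and with *Cd209a* at 0 (4 higher and 1 lower of 7 tested). The 8 neutrophil genes summed to at most 0.915 CPM, led by *Mpo* and with *S100a9* at 0 (1 higher of 1 tested). The 9 erythroid genes went from 10.5 and 10.3 CPM to 91.4 and 66.6 CPM, led by *Hbb-bs* (6 higher and 1 lower of 8 tested). A count of 0 allows up to 3 counts, or 0.0845 to 0.116 CPM in these libraries, which covers counting error only. In the replicate 1 pair the NK cell list summed to 2.29 and 11.2 FPKM and the macrophage and monocyte list to 4.22 and 13.5 FPKM. The dendritic cell list summed to 77.7 and 126 FPKM. Sums of the regulatory T cell and erythroid lists were also higher with the inhibitor there. Those of the T cell, B cell, plasma cell and neutrophil lists were lower. The part of these lists in the higher members of that pair was not tested either.

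Ligands of the receptors are made by antigen-presenting cells and by activated lymphocytes themselves. Of 14 listed, 12 were tested, 5 were higher and 4 lower, with a median log2 fold change of 0.04. Of the PD-1 ligands, *Pdcd1lg2* (PD-L2) fell from 69.7 and 72.2 CPM to 17.9 and 21.8 CPM (−1.84), and *Cd274* (PD-L1) was at 333 and 336 CPM with DMSO and at 321 and 334 CPM with the inhibitor (−0.029), overlapping groups with no call and a sign that depends on the scaling. Both CTLA-4 ligands rose, *Cd80* from 34.2 and 36.7 CPM to 72.7 and 73.3 CPM (1.04) and *Cd86* from 118 and 120 CPM to 199 and 189 CPM (0.71). Both were higher in the replicate 1 pair too, *Cd80* at 5.43 and 35.7 FPKM and *Cd86* at 10.5 and 18.4 FPKM. Of the TIGIT ligands, *Pvr* rose (0.95) and the scarce *Nectin3*, at 0.919 to 1.05 CPM with DMSO, fell (−2.26, standard error 0.50), by an amount that ran from −1.72 without MAPK13-IN-1 replicate 2 to −3.08 without MAPK13-IN-1 replicate 3. *Nectin2*, the other one listed, was at 4.46 and 3.09 CPM with DMSO and 2.70 and 2.89 CPM with the inhibitor and did not pass (−0.43, standard error 0.23), and it ran from −0.16 without DMSO replicate 2 to −0.68, with a call, without DMSO replicate 3. *Lgals9* and *Ceacam1*, reported ligands of TIM-3, rose by 0.62 and 1.41, and *Hmgb1*, another, fell. *Tnfrsf14*, the HVEM gene, did not pass at 0.10 but did with upper-quartile factors (0.18) and library totals alone (0.23). Of the LAG-3 ligands, *Lgals3* fell from 92.1 and 94.0 CPM to 56.5 and 53.2 CPM (−0.76, standard error 0.067) and was higher in the replicate 1 pair (log2 ratio 0.62), and transcripts of *Fgl1* were not counted in any of the 4 libraries.

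The stimulatory receptors that share these ligands were also divided. Of 8 listed, all tested, 2 were higher and 3 lower, with a median of 0.07. The count called higher was 3 with upper-quartile factors and 4 with library totals alone, with 3 lower in both. *Cd28*, the counterpart of *Ctla4*, fell from 311 and 322 CPM to 212 and 227 CPM (−0.53), a smaller fall than that of *Ctla4*, although the difference was not tested. *Icos* was at 110 and 106 CPM with DMSO and at 124 and 125 CPM with the inhibitor (0.21). Its call was lost without DMSO replicate 2 or DMSO replicate 3, at log2 fold changes of 0.22 and 0.17. *Cd226*, the stimulatory counterpart of *Tigit*, fell (−0.76) and *Cd96*, a further PVR receptor, rose (0.61).

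Of 21 other receptors listed as inhibitory, 19 are in the table and 16 were tested, with 8 higher (50.0%), 5 lower (31.2%) and a median of 0.42. The shares over all genes were 31.5% higher and 32.3% lower, and with a log2 change over 1 also required the list had 4 each way. *Slamf6*, a homotypic receptor also used as a marker of stem-like T cells, rose from 64.5 and 66.6 CPM to 177 and 172 CPM (1.41) and was at 38.0 and 63.0 FPKM in the replicate 1 pair. *Cd244a*, the gene of 2B4, rose from 0.62 and 1.18 CPM to 9.78 and 9.44 CPM (3.40). *Lilrb4a* fell from 45.0 and 46.0 CPM to 12.6 and 12.7 CPM (−1.84), with reads possibly shared with its close relative *Lilr4b*. *Tnfrsf9*, which encodes 4-1BB, an activating receptor that the list also holds, fell from 520 and 490 CPM to 166 and 236 CPM (−1.33). In the replicate 1 pair *Lilrb4a* (38.8 and 109 FPKM) and *Tnfrsf9* (106 and 189 FPKM) were higher with the inhibitor.

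Signalling molecules tied to these receptors showed no common direction, with 5 of 19 tested higher, 7 lower and a median of −0.06. With upper-quartile factors 7 were higher and 6 lower, and with library totals alone 8 were higher and 6 lower. *Inpp5d*, which encodes the phosphatase SHIP-1, rose (0.61), and the adaptors *Sh2d1a* and *Trat1* (−1.65 and −1.47) and the ubiquitin ligase adaptor *Ndfip1* (−0.71) fell. Genes induced through the T cell receptor mostly fell. Of 18 listed, all tested, 15 were lower (83.3%) and 2 higher (11.1%), with a median of −1.02. Over all genes the shares were 32.3% lower and 31.5% higher. Of the 9 T cell markers, 7 fell too, with a median of −1.26. Scaling to those markers raised the median of all genes by 0.99. The part of this difference in the fall of the 18 genes was not tested. *Egr1* went from 341 and 332 CPM to 49.8 and 47.1 CPM (−2.80), *Tnfrsf4* and *Tnfrsf18* fell by 1.76 and 1.84 on the log2 scale, and *Cd44*, which marks activated and memory cells, rose (1.06). The same 18 genes had a median log2 ratio of 0.36 in the replicate 1 pair. Among 31 factors known to act at exhaustion genes, 15 were lower and 7 higher, with a median of −0.20. *Maf* and *Egr3* changed by −2.28 and −2.31, *Nfatc2* by −1.08, *Egr2* by −1.09, *Nfkb1* by −0.78 and *Irf4* by −0.65. *Nfatc2* was close to level in the replicate 1 pair, at 20.4 FPKM with DMSO and 19.3 with the inhibitor. The part of these factors in the fall of *Pdcd1*, *Ctla4* and *Lag3* was not tested.

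The 10 genes lie on 8 chromosomes of the mouse genome (GRCm38, GENCODE M21), and only *Pdcd1* and *Ctla4* (chromosome 1) and *Tigit* and *Btla* (chromosome 16) share one. *Ctla4* (chr1:60887000-60915832, plus strand) stands between *Cd28* and *Icos*, 113640 and 62094 bases away, and within this cluster of costimulatory receptor genes *Ctla4* and *Cd28* fell while *Icos* did not. *Lag3* (chr6:124904361-124911705, minus strand) stands 16139 bases from *Cd4*, which was level, and 1975 bases from *Ptms*, which fell (−0.91), and *Gpr162*, beyond *Cd4*, fell as well (−1.94). *Lag3*, *Ptms* and *Gpr162* were all higher with the inhibitor in the replicate 1 pair, with log2 ratios of 1.40, 1.3 and 0.78. Beside *Btla*, which did not pass, the gene of the ligand CD200, *Cd200*, fell (−1.31). *Cd160* overlaps the start of *Pdzk1* by 68 bases, on the opposite strand, and *Pdzk1* was at 0.919 CPM or less, so reads of that stretch are uncertain. Of 36 genes on the list of neighbours, members included, 29 were tested, 4 were higher and 13 lower, with a median of −0.29, and the count called higher was 2 without MAPK13-IN-1 replicate 2. Without the members it was 3 and 10 of 19.

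RefSeq promoter windows (GRCm38.p6) were matched for 8 of the 10 members, in 14 windows. The set of windows at hand held none for *Lag3* or *Tox*. *Pdcd1* and *Ctla4* moved together in both preparations, as did *Lag3*, which has no window. The 250 bases before the RefSeq start of *Pdcd1* and of *Ctla4* were therefore chosen after these values were seen. They are shown 5′ to 3′ on the strand of the gene. The RefSeq start of *Ctla4*, base 60909025, lies inside the GENCODE span given above, which starts at base 60887000, so its window is not upstream of that span. The 4 short patterns searched on both strands were TGANTCA (AP-1), GGAAA (the NFAT core), and CTTTGA and CTTTGT (Tcf and Lef cores). Capitals mark every match, and all are to the NFAT core, which reads TTTCC on this strand.
*Pdcd1*, chr1:94052554-94052803, minus strand: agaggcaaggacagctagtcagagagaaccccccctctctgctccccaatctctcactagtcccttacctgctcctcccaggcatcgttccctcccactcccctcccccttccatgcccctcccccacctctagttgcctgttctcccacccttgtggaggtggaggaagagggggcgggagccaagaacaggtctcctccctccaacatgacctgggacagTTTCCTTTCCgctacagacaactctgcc
*Ctla4*, chr1:60908775-60909024, plus strand: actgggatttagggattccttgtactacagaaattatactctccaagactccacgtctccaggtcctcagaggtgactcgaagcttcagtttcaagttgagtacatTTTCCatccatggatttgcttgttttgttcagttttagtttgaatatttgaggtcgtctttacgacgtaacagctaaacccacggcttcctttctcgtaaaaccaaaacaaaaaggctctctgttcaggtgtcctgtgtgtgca
The *Pdcd1* window holds 2 adjoining matches and the *Ctla4* window 1, and neither holds the other 3 patterns. Over all 32851 windows of this length, 55.6% hold GGAAA, 6.75% TGANTCA, 13.8% CTTTGA and 16.5% CTTTGT. The windows differ in base composition, with 60.4% G and C for *Pdcd1* and 42.4% for *Ctla4*. Of the members that did not pass, *Tigit* has 2 NFAT core matches and 1 CTTTGT, *Havcr2* has the 1 TGANTCA among all member windows, and *Btla* has none of the 4. *Cd160* has 1 NFAT core match and 2 of CTTTGA in 1 of its 2 windows, and *Tox2* has 1 of each in 2 of its 5 windows. These 2 windows of *Tox2* overlap almost wholly, starting at bases 163225203 and 163225204, and hold the same sites. *Entpd1*, the member called higher, has 2 NFAT core matches in 1 of its 2 windows, as many as *Pdcd1*.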

How the data were processed

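RNA-seq of splenic CD4+ T cells was analysed from 6 libraries, grouped by their labels. Unnormalized read counts are what the authors deposited for replicates 2 and 3. Values read here as FPKM, because they scale with length and sum to 405150 and 390729, are what the authors deposited for the replicate 1 pair. The submitters' processing notes name fastp 0.21.0, HISAT2 2.1.0, StringTie 2.1.5, DESeq2 1.30.1, FastQC and the builds mm10 and GRCm38, without roles. The annotation used for counting, and whether counting used the strand, are not given in the sources used here.

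The fits ran under R 4.3.3, using edgeR 4.0.16. Low counts were filtered by filterByExpr (minimum count 10, minimum total 15), libraries were scaled by TMM (factors 0.960, 0.955, 1.05 and 1.04), and groups were compared by the quasi-likelihood test, 2 against 2, with Benjamini-Hochberg adjustment and a threshold of 0.05. The scripts were tested on simulated data. Replicates of a group differed by a mean chi-square per gene of 3.00 with DMSO and 9.70 with the inhibitor, more than sampling noise, and were not treated as copies. Log2 ratios of the replicate 1 pair used a pseudocount of 1 and have no p-value. Lengths and positions came from GENCODE M21.

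Members and gene lists were chosen with earlier results of these data known. Apart from the members, the text names at most 6 genes per pathway list with the smallest p-values, ligands, neighbours and family partners of members, and from each marker list the gene with the highest CPM, genes at 0 and at most 3 others. *Klrk1* and genes named for overlap or likeness to these are outside that rule and were chosen after values were seen. Alternatives were RLE and upper-quartile factors, library totals, 2 other filters, DESeq2 1.42.0, a replicate block, each library left out (the lone library assumed to vary like the other group) and 2 stricter thresholds.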

Additional observations from a re-analysis of the deposited data

Results flagged for a closer look

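The genes below were called in the count libraries, moved one way in every library of replicates 2 and 3 and the other way in the replicate 1 pair, which has another library preparation. The difference between preparations was not tested. Such a reversal was common: of the 5183 genes called lower that have a value in the pair, 2236 (43.1%) were higher there. Of the 10 members, 3 did so: *Pdcd1*, *Ctla4* and *Lag3* fell in the count libraries and had log2 ratios of 0.84, 0.39 and 1.40 in the replicate 1 pair. *Havcr2* and *Cd160*, with no call, were also lower in both inhibitor count libraries and higher in the pair, at 1.28 and 0.42.

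Other genes that fell in the count libraries were also higher with the inhibitor in that pair. Among ligands and receptors, the log2 ratio was 0.79 for *Nectin3*, 0.62 for *Lgals3*, 0.20 for *Cd28*, 0.59 for *Cd226*, 1.46 for *Lilrb4a*, 0.83 for *Tnfrsf9*, 0.18 for *Tnfrsf18* and 0.48 for *Nt5e*. Among transcription factors it was 0.31 for *Egr3*, 0.46 for *Egr2* and 0.11 for *Lef1*. Among genomic neighbours it was 1.3 for *Ptms*, 0.78 for *Gpr162* and 0.95 for *Cd200*. Among marker genes it was 0.10 for *Cd3g*, 0.10 for *Foxp3*, 0.81 for *Gpr83*, 3.00 for *Nkg7* and 0.46 for *Cd8a*. In the opposite sense, the B cell genes *Pax5* (−0.66), *Blk* (−0.46) and *Ms4a1* (−0.19) rose in the count libraries and were lower in the pair. *Inpp5d* rose there too and was close to level in the pair, at 18.9 and 18.4 FPKM (−0.03), and none of these pair values has a replicate.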

How the results depend on the processing

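The calls of *Pdcd1*, *Ctla4* and *Lag3* as lower held under all 11 alternative fits planned. Of 58 called genes refitted under the alternatives, members included, 56 kept their call in each one run, the exceptions being *Entpd1* and *Icos*. *Nectin3* had 10 such fits, being under the filter of at least 10 counts in every library, and *Mzb1*, *Prf1*, *Klrk1*, *Cd68*, *Bst2*, *Mpo*, *Pdzk1* and *Lilr4b* were not refitted singly. Requiring a log2 fold change over 1 reduced the calls over all genes to 2113 higher and 1686 lower, and scaling to T cell markers, added after seeing the data, gave 12456 higher and 783 lower. Library totals moved the median of all genes by 0.13. The number of members called higher, 1 with TMM and edgeR, was 2 with upper-quartile factors and with library totals, 6 with scaling to T cell markers, 0 with DESeq2 and with both stricter thresholds, and 0 to 1 with a library left out. The number called lower was 3 to 5 with a library left out, 5 without MAPK13-IN-1 replicate 3.

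Some uncalled log2 fold changes near 0 turned sign. *Btla* was at 0.025 with upper-quartile factors, 0.069 with library totals and −0.14 to 0.015 with a library left out. *Cd274* was at 0.052, 0.096 and 0.016 with upper-quartile factors, library totals and at least 10 counts in every library, *Tox4* at 0.0014 and 0.046 with the first 2 of these. *Cd4* was at 0.013 with RLE factors, 0.080 with upper-quartile factors, 0.12 with library totals, 0.044 with at least 10 counts in every library, 0.013 with DESeq2 and −0.050 to 0.041 with a library left out. With scaling to T cell markers *Havcr2*, *Tigit*, *Btla* and *Cd160* were at 0.74, 0.84, 0.93 and 0.64. Apart from that scaling's own construction, the cause was not tested. In the replicate 1 pair all 10 members stayed higher with a pseudocount of 0.1 and with values divided by their sum.

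With the replicate block, 5261 genes were higher and 5384 lower, with 1 and 3 of the members. Deviations from the group means had a correlation of −0.0064 between libraries of the same number, so no shared replicate effect was seen. With 2 libraries per group this cannot show whether libraries of the same number shared an animal or a culture. Precision is limited by 2 libraries per group, by the 30 to 34 counts of *Cd160*, and by the unknown depth of the replicate 1 pair.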
